A study of Mus musculus with 5 samples.

Results

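The interferon response and antigen presentation genes comprised 42 genes chosen by name, of which 38 could be measured among the 12393 genes on the array. They were 15 antiviral interferon-stimulated genes, 1 RNA sensor, 4 interferon-inducible GTPases, 5 IRF and STAT factors, 9 genes of the MHC class I machinery and 4 class II genes. Each was represented by its probe set annotated to that gene alone, and where there were several, by the one with the highest mean signal. Ifi44, Xaf1 and Ddx58 had no listed probe set, and Isg15 had only 1 that it shared with another gene, so these 4 are not analysed here.

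RNA was taken from ID8 cells, a line from the ovarian surface epithelium of C57BL/6 mice, which grows as peritoneal tumours with ascites when put back into mice. In the ascites group (n = 2 arrays, replicates 2 and 3) the cells had been grown in DMEM with 10% ascites fluid from ID8-bearing mice, for 7 days by the series design. In the FBS group (n = 3 arrays, replicates 1, 2 and 3) the medium was DMEM with fetal bovine serum (FBS) at 10%. All arrays come from 1 cell line, nothing in the labels says that replicates were separate cultures, and p values therefore cover array-to-array spread, which may be technical, and no more. The sources do not say whether the ascites medium held serum too, or how long the FBS culture lasted. Values are log2 signals of 1 array each, changes are ascites minus FBS on the log2 scale with their standard error (SE), and adjusted p values are from limma's moderated test with Benjamini-Hochberg adjustment over all genes, with a threshold of 0.05. Fewer cells of a type and less RNA per cell cannot be told apart in these bulk samples.

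Interferons bind receptors whose JAK kinases phosphorylate STAT proteins. After type I interferon, a complex that holds STAT2 and IRF9 binds a promoter element called the ISRE. Interferon gamma acts through the GAS element, and IRF1, itself induced in this way, then acts on ISRE-like elements of many genes, among them those of antigen presentation. In the class I pathway, peptides cut by the proteasome are pumped into the endoplasmic reticulum by the TAP transporter and loaded onto class I molecules with the help of tapasin, for display to CD8 T cells. Class II molecules are normally confined to professional antigen-presenting cells unless interferon gamma induces their activator CIITA.

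The genes did not move together in ascites. Irf1 and Tapbp fell, Oas1a rose, and the other 35 measured members did not pass the threshold. These 3 of 38 members are 7.89%, beside 5.28% of all 12393 genes called in either direction (2.69% risen and 2.59% fallen). A change of at least 1 in either direction was found for 5 members (13.2%, against 5.58% of all genes). At an unadjusted p below 0.05 there were 11 members, or 28.9%, beside 24.2% of all genes. The median change of the members was 0.06, with 22 higher and 16 lower in ascites, beside a median of 0.00 over all genes. Both ascites arrays lay above all FBS arrays for 11 members (28.9%, against 18.6% of all genes) and below all of them for 6 members (15.8%, against 19.4%). Among the 11, the nearest ascites and FBS arrays almost met for B2m (13.41 and 13.40), H2-Aa (4.97 and 4.96) and Cd74 (6.98 and 6.95). H2-K1 is also among the 11, by its brightest probe set only. At 3 of 38, the share of called members was near the share over the whole array.

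FBS replicates 1 and 2 were nearly alike, with an SD of 0.117 for their difference over genes and 0 genes apart by 1 or more, whereas the same SD was 0.427 between FBS replicate 3 and either of them. When FBS replicate 1, FBS replicate 2, ascites replicate 2 or ascites replicate 3 was left out, limma called 0 members and 0 genes of the whole array, with 7 to 13 members and 2016 to 2748 genes at an unadjusted p below 0.05. Without an ascites array that group holds 1 array, the spread comes from the FBS arrays alone, and the lone array is assumed to vary like them. Once FBS replicate 3 was left out, called members numbered 8 (2 risen and 6 fallen), beside 20.1% of all genes, 9.17% risen and 10.9% fallen. That fit takes its FBS spread from replicates 1 and 2 alone. With limma's array weights called members numbered 9, beside 21.1% of all genes. Irf1, Tapbp and Oas1a kept their direction in each of 13 alternative fits, and 6 of the 13 took each of them above the threshold. For these 3 genes the ascites arrays lay apart from all FBS arrays, so leaving out, averaging or weighting arrays could not turn the direction. The deposited values carry no detection call. Of the members, 7 (18.4%) had a mean signal in the lowest 25% of genes, and 9 (23.7%) had 1 value repeated on at least 3 arrays, as did 20.3% of all genes.

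**Figure D1:**
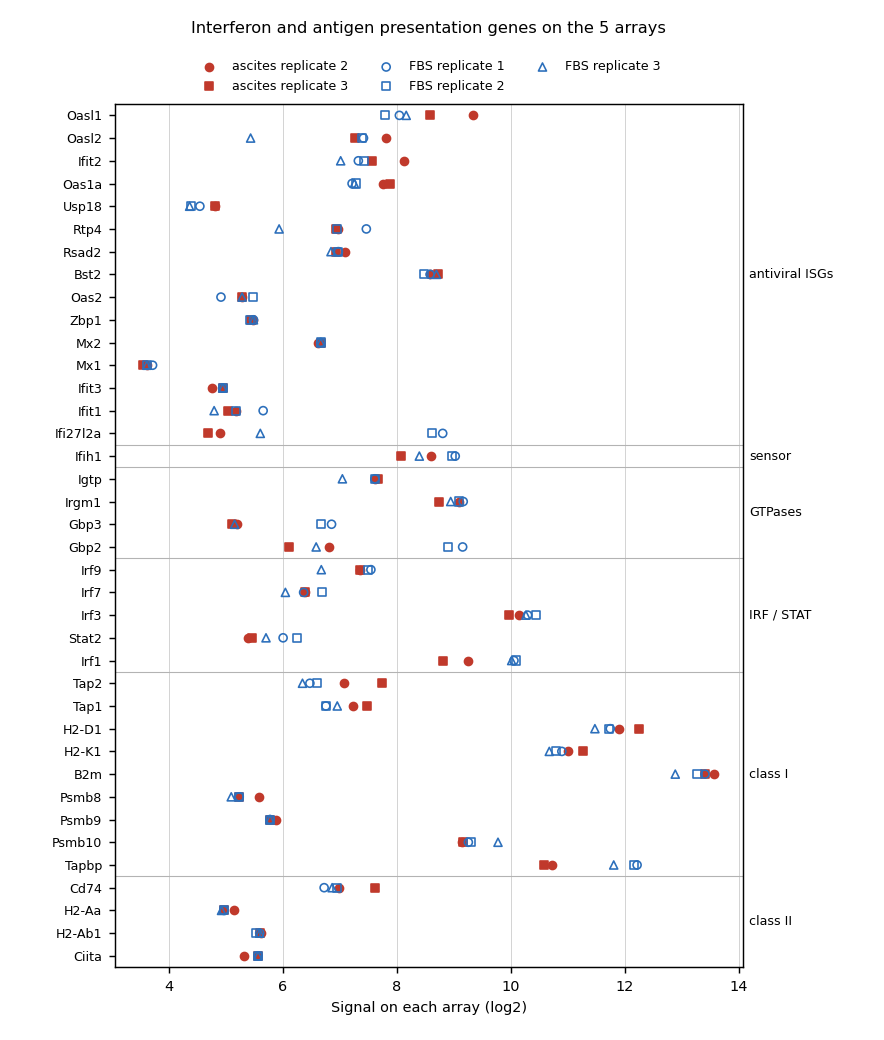
Signal of each of the 38 measured members on each array (log2, horizontal axis), with ascites arrays as filled red marks and FBS arrays as open blue marks, grouped by role (ISGs, interferon-stimulated genes). FBS replicate 3 (triangle) lies far from FBS replicates 1 and 2 for Ifi27l2a, Gbp2, Gbp3, Oasl2 and Rtp4, while the ascites arrays lie apart from all FBS arrays for Tapbp, Irf1 and Oas1a.

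Among the IRF and STAT factors, 1 of 5 fell and 0 rose. Irf1 read 9.24 and 8.81 in ascites, against 10.05, 10.09 and 10.01 in FBS. Both ascites arrays were below all FBS arrays, which lay within 0.08 of each other. It was 2.03-fold lower in ascites (change -1.02, SE 0.14, 95% confidence interval -1.41 to -0.64, adjusted p = 0.0401). Stat2, the subunit of the type I interferon complex that carries its activation domain, read 5.39 and 5.46 in ascites, against 6.0, 6.24 and 5.70 in FBS. Its arrays did not overlap, and the change of -0.56 (SE 0.18) had an adjusted p of 0.156, or 0.0362 without FBS replicate 3. Another probe set of Stat2 changed by -0.14. Irf3, the factor that switches on interferon beta once phosphorylated, averaged 10.05 ± 0.11 in ascites (SD, n = 2) and 10.33 ± 0.09 in FBS (SD, n = 3), with an adjusted p of 0.157, and its 4 probe sets changed by -0.28 to 0.16. The groups overlapped for Irf7, the amplifier of type I interferon production (change 0.03), and for Irf9, the DNA-binding subunit of the STAT complex (change 0.12). For Irf9 both ascites arrays read 7.35, between FBS replicate 3 at 6.67 and the other FBS arrays at 7.54 and 7.49. Without FBS replicate 3 the direction turned for both, to -0.13 for Irf7 and -0.17 for Irf9.

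The promoter of Irf1 is shown because its GAS element is the textbook target of STAT dimers. This window, chr11:53769764-53770063 on the plus strand of GRCm38.p6, runs from 250 bases before to 50 bases after the RefSeq start, 5′ to 3′. The capitals mark the 1 match to TTCNNNGAA, whose first base lies 90 bases before the start. No ISRE letters were found in it. Another RefSeq window of Irf1 held neither motif.
Irf1: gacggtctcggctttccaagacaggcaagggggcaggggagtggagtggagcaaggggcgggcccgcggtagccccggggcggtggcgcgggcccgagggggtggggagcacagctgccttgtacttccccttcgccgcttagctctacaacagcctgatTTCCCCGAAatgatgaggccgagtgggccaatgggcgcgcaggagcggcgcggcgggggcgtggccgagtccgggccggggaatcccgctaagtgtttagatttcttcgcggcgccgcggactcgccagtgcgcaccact

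Of the 15 antiviral interferon-stimulated genes, 1 rose and 0 fell, with a median change of 0.06. The gene that rose was Oas1a, an oligoadenylate synthetase that answers double-stranded RNA by activating RNase L. It read 7.76 and 7.88 in ascites, against 7.21, 7.28 and 7.25 in FBS. The groups did not overlap, and the gap between them exceeded the spread within each. Oas1a was 1.49-fold higher in ascites (change 0.57, SE 0.06, 95% confidence interval 0.40 to 0.74, adjusted p = 0.0265). FBS replicate 3 did not stand apart for this gene, and without it the change was 0.57 (adjusted p = 0.0226).

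Other members of the OAS family did not pass. Oasl1, an OAS-like protein that restrains Irf7 translation in mice, read 9.33 and 8.57 in ascites, against 8.04, 7.79 and 8.16 in FBS. The groups did not overlap, but the ascites arrays differed from each other by nearly as much as the change of 0.95 (SE 0.27, adjusted p = 0.127). Oasl2 read 7.81 and 7.26 in ascites, against 7.41, 7.38 and 5.43 in FBS, where FBS replicate 3 was the lowest array. Its change was 0.80 with that array and 0.14 without it (adjusted p = 0.569 and 0.688). Oas2 changed by 0.06, at a signal in the lowest 25% of genes. Oasl1, Oasl2 and Ifit2 are given here because of their values, not by the rule for named genes.

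Usp18, which strips ISG15 from proteins and dampens the type I receptor, read 4.80 and 4.80 in ascites, against 4.54, 4.38 and 4.36 in FBS. The groups did not overlap, but the signal lay in the lowest 25% of genes, and the change of 0.37 (SE 0.08) had an adjusted p of 0.0725. Ifit2, which binds foreign or stray RNA and blocks its translation, read 8.12 and 7.56 in ascites, against 7.32, 7.42 and 7.01 in FBS (change 0.59, SE 0.22, adjusted p = 0.213). Its relatives Ifit1 and Ifit3 changed by -0.10 and -0.09, and Ifit1 by -0.30 without FBS replicate 3. The remaining members were Rsad2 (viperin), which makes a chain-terminating nucleotide, the virion tether Bst2, the dynamin-like genes Mx1 and Mx2, the receptor-transporting protein gene Rtp4 and the Z-nucleic acid sensor Zbp1. Their changes lay between -0.06 and 0.17, and their groups overlapped. Dimmer probe sets changed by -0.13 and -0.105 for Rsad2 and by -0.05 for Rtp4, against 0.08 and 0.17 for the brightest ones. Without FBS replicate 3 the direction of Rtp4 turned, with changes of 0.17 with that array and -0.26 without it, and Zbp1 also changed sign (-0.005 and 0.005). The 1 measured RNA sensor, Ifih1, which encodes MDA5, read 8.60 and 8.06 in ascites, against 9.02, 8.97 and 8.39 in FBS. FBS replicate 3 lay between the ascites arrays, and the change was -0.46 (SE 0.28, adjusted p = 0.406).

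For Ifi27l2a, Gbp2 and Gbp3 the FBS arrays did not lie together, and FBS replicate 3 lay among the ascites arrays or nearer to them than to the other FBS arrays. Ifi27l2a, a small interferon-induced membrane protein gene, read 4.90 and 4.69 in ascites, against 8.80, 8.61 and 5.60 in FBS. Both ascites arrays were below all FBS arrays, and FBS replicate 3 was the FBS array next to them. The change was -2.88 (SE 1.12, adjusted p = 0.223), and -3.91 without FBS replicate 3 (SE 0.12, adjusted p = 0.00737). Gbp2, a guanylate-binding GTPase that attacks the vacuoles of intracellular microbes, read 6.81 and 6.11 in ascites, against 9.15, 8.90 and 6.58 in FBS. FBS replicate 3 lay between the ascites arrays, so the groups overlapped. The change was -1.75 (SE 0.91, adjusted p = 0.345), and -2.56 without FBS replicate 3 (adjusted p = 0.0238). A second probe set of Gbp2 gave the same order of arrays and a change of -1.83.

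Gbp3, a neighbouring paralog of Gbp2 on chromosome 3, read 5.19 and 5.10 in ascites, against 6.85, 6.67 and 5.15 in FBS. Here too FBS replicate 3 lay between the ascites arrays. Probe sets of close paralogs such as Gbp2 and Gbp3 can bind each other's transcripts. The change was -1.08 (SE 0.58, adjusted p = 0.365), and -1.61 without FBS replicate 3 (adjusted p = 0.00959). Immunity-related GTPases patrol vacuoles in the same defence. Among them, Igtp read 7.61 and 7.67 in ascites, against 7.61, 7.61 and 7.04 in FBS, and Irgm1 changed by -0.15 (adjusted p = 0.558). Ifi47 and Irgm2, GTPases of the same family outside the members, are given because of their values. Ifi47 read 6.86 and 6.75 in ascites, against 8.0, 7.79 and 7.12 in FBS, with FBS replicate 3 nearer to the ascites arrays (adjusted p = 0.186, or 0.017 without it). Irgm2 read 6.06 and 6.30 in ascites, against 7.01, 7.17 and 5.62 in FBS, where FBS replicate 3 was the lowest array (adjusted p = 0.684, or 0.029 without it). FBS replicate 3 minus the mean of FBS replicates 1 and 2 was -0.775 for Ifi47 and -1.47 for Irgm2. For other GTPases outside the members it was 0.185 (Iigp1), -0.05 (Gbp6) and -0.345 (Gbp7), where Iigp1 and Gbp6 read below 5.44 on every array. In all, FBS replicate 3 read at least 1 lower than the mean of FBS replicates 1 and 2 for 5 of 38 members (13.2%, against 2.4% of all genes), namely Ifi27l2a by -3.10, Gbp2 by -2.44, Oasl2 by -1.97, Gbp3 by -1.61 and Rtp4 by -1.27. It read at least 1 higher for 0 members, against 1.06% of all genes. This difference between arrays of 1 group has no replicate and no test. Of the 8 ovarian surface and mesothelial markers, 4 were also at least 1 lower in FBS replicate 3, among them Krt7 (5.66, against 8.0 and 8.08) and Upk3b (12.66, against 14.63 and 14.61), and their part in the result was not tested.

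**Figure D2:**
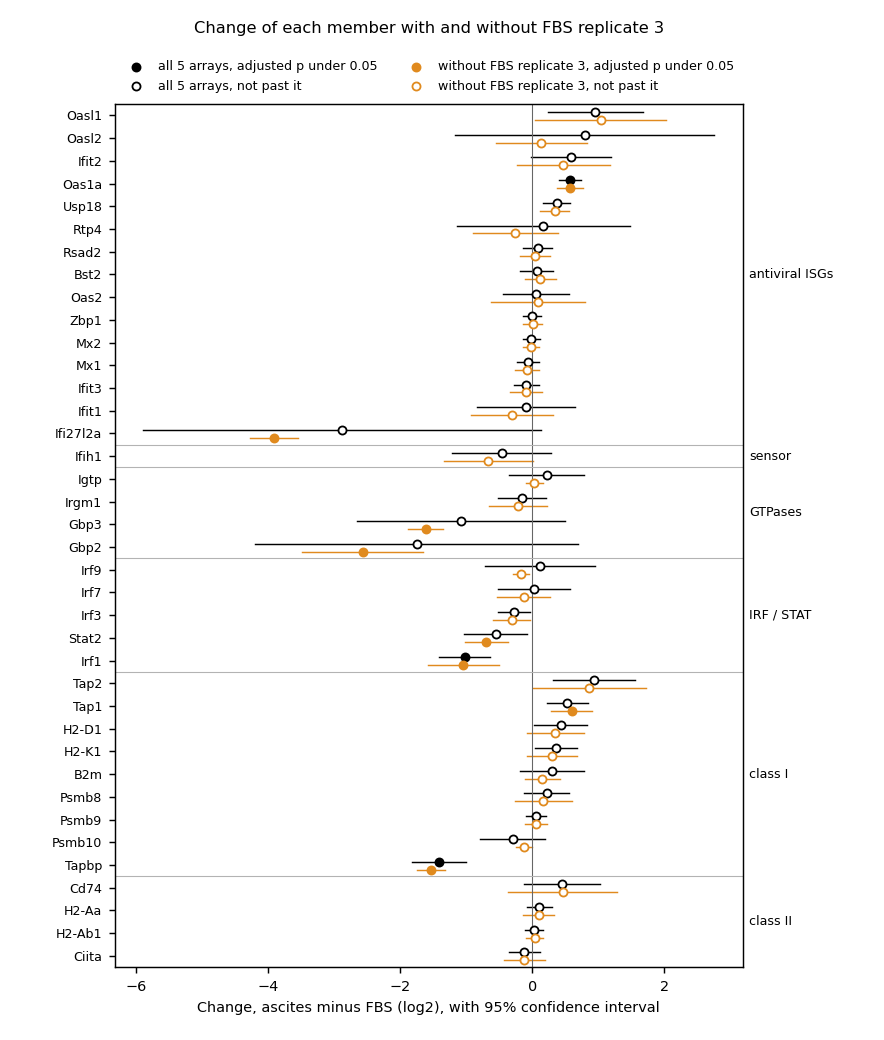
Change of each member, ascites minus FBS (log2, horizontal axis), with its 95% confidence interval from limma, for all 5 arrays (black) and without FBS replicate 3 (orange), where filled points passed an adjusted p of 0.05. Oas1a, Irf1 and Tapbp are filled in both fits, whereas Ifi27l2a, Gbp2, Gbp3, Stat2 and Tap1 are filled only without FBS replicate 3.

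The promoters of Oas1a, Gbp2 and Gbp3 are shown because Oas1a passed the test and both Gbp genes read at least 1 lower in FBS replicate 3 and hold ISRE letters. The promoter of Ifi27l2a is not analysed here. The windows are chr5:120907476-120907775 (minus strand) for Oas1a, chr3:142620413-142620712 (plus strand) for Gbp2 and chr3:142559794-142560093 (plus strand) for Gbp3, all RefSeq, GRCm38.p6, written 5′ to 3′ along the gene. Capitals mark ISRE letters, GAAA and GAAA with any 2 bases between them on either strand, and GAS letters, TTCNNNGAA.
Oas1a: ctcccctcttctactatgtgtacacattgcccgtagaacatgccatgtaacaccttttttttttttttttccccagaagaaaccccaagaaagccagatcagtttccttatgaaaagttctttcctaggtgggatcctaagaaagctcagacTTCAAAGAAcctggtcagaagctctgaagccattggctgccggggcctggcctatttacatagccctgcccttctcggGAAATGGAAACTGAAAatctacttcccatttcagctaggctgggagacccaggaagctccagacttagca
Gbp2: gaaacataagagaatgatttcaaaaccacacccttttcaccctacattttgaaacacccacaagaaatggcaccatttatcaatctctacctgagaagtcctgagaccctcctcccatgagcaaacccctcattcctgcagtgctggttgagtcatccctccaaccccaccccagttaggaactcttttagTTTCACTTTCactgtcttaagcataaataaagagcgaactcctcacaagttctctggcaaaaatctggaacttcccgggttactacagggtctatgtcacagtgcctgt
Gbp3: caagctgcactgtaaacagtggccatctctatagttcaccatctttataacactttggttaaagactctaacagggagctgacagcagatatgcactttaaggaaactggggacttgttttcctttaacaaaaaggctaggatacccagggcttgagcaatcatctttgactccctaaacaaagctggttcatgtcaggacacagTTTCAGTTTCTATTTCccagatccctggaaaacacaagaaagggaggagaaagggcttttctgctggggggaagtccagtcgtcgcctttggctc

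In Oas1a, 2 overlapping ISRE matches began 20 and 14 bases before the start, and a GAS match began 98 bases before it. Gbp2 had 1 ISRE match 59 bases before the start, read on the opposite strand, and Gbp3 had 2 overlapping ones at 45 and 39 bases. The Gbp genes thus carried ISRE letters on the strand opposite to those of Oas1a. A second RefSeq window of Gbp3 held neither motif.

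Promoter windows were found for 27 of the 38 measured members. ISRE letters were in at least 1 window of 12 of them, beside 3.44% of 32851 windows of all genes, and the longer form followed by CT, which contains the ISRE, was in 7, beside 0.271%. GAS letters were in 6 members, beside 8.3% of windows. The NF-kappaB letters, GGG and CC with any 5 bases between them, were in 20 members, beside 50.8% of windows. A member was counted if any of its windows matched, and some had more than 1 window, whereas the shares over all genes count single windows. The figures for members and for all windows are therefore not in like units. The members were named as interferon targets, so the share with an ISRE is a description of the choice. Genes with ISRE letters included Oas1a, which rose, Gbp2 and Gbp3, and also Rsad2, Ifit1, Ifit3, Bst2 and Irgm1, whose changes lay between -0.15 and 0.08. The other members with ISRE letters were Stat2, Ifih1, B2m and Igtp, with changes of -0.56, -0.46, 0.30 and 0.22. In Bst2 the GAS match overlapped an ISRE match. The window of Tapbp held none of these 4 motifs, and of the 4 those of H2-K1, H2-D1, Tap1 and Psmb9 held the NF-kappaB letters only. Only exact matches to the letters within these windows were counted. Elements that depart from the letters or lie outside the windows were not looked for, so a promoter without a match may still hold one.

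**Figure D3:**
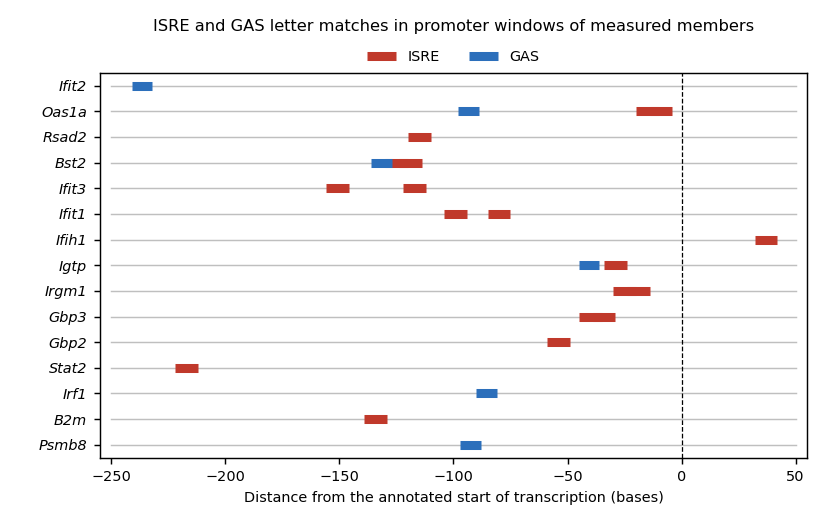
Positions of ISRE (red) and GAS (blue) letter matches on either strand, relative to the annotated start of transcription (dashed line), in the 15 measured members with at least 1 match. Matches in Oas1a, Gbp2, Gbp3, Irgm1 and Igtp begin at most 59 bases before the start, apart from GAS in Oas1a at 98 bases, and those of Stat2 and Ifit2 begin 222 and 241 bases before it.

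In the class I machinery, Tapbp fell, while 7 of the 9 members had a higher mean in ascites without passing the threshold, H2-K1 among them by its brightest probe set only. Tapbp, which encodes tapasin, the bridge that holds empty class I molecules at the TAP transporter and edits their peptides, read 10.72 and 10.58 in ascites, against 12.21, 12.16 and 11.80 in FBS. The gap between the groups was wider than the spread within either. Tapbp was 2.65-fold lower in ascites (change -1.41, SE 0.15, 95% confidence interval -1.82 to -0.996, adjusted p = 0.0263). A second, dimmer probe set gave 7.30 and 7.12 in ascites, against 8.48, 8.22 and 7.80 in FBS, a change of -0.96. Its relative Tapbpl, which edits class I peptides outside the loading complex, changed by -0.07 (adjusted p = 0.676).

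The transporter genes themselves lay on the other side. Tap1, a subunit of the peptide pump, read 7.23 and 7.47 in ascites, against 6.75, 6.75 and 6.95 in FBS. The change of 0.53 (SE 0.11) had an adjusted p of 0.0777, or 0.0441 without FBS replicate 3, and its 3 dimmer probe sets changed by -0.10 to 0.06. Tap2, its partner subunit, read 7.06 and 7.74 in ascites, against 6.47, 6.60 and 6.34 in FBS (change 0.93, SE 0.23, adjusted p = 0.1). The ascites arrays lay above all FBS arrays for both genes. Tap2, B2m, H2-K1 and H2-D1 are named because of their values and not by the rule.

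The class I chains were bright, and their changes did not pass the threshold. B2m, the invariant light chain, read 13.56 and 13.41 in ascites, against 13.40, 13.27 and 12.88 in FBS, with a change of 0.30 (SE 0.18, adjusted p = 0.404) and 0.32 in its other probe set. Without FBS replicate 3 the change of B2m was 0.15 (adjusted p = 0.348). H2-D1, a classical class I heavy chain, read 11.90 and 12.24 in ascites, against 11.74, 11.71 and 11.47 in FBS (change 0.43, SE 0.15, adjusted p = 0.18). Its 9 probe sets changed by -0.17 to 0.65, 5 up and 4 down, and with their mean the change was 0.18 (adjusted p = 0.154). H2-K1, another classical heavy chain, read 11 and 11.27 in ascites, against 10.89, 10.78 and 10.67 in FBS (change 0.35, SE 0.12, adjusted p = 0.169).

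The direction of H2-K1 depended on the probe set. A second bright one read 10.37 and 10.06 in ascites, against 10.80, 10.77 and 11.01 in FBS, a change of -0.64 with no overlap between the groups. The others changed by -0.41 and 0.00. Class I heavy chains are near-identical paralogs. All 4 probe sets of H2-K1 are of the kind that the manufacturer marks as able to bind related transcripts, so no direction is given for this gene. The probe set shown for H2-D1 is of that kind too. B2m and Tapbp, by contrast, had probe sets that moved alike.

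**Figure D4:**
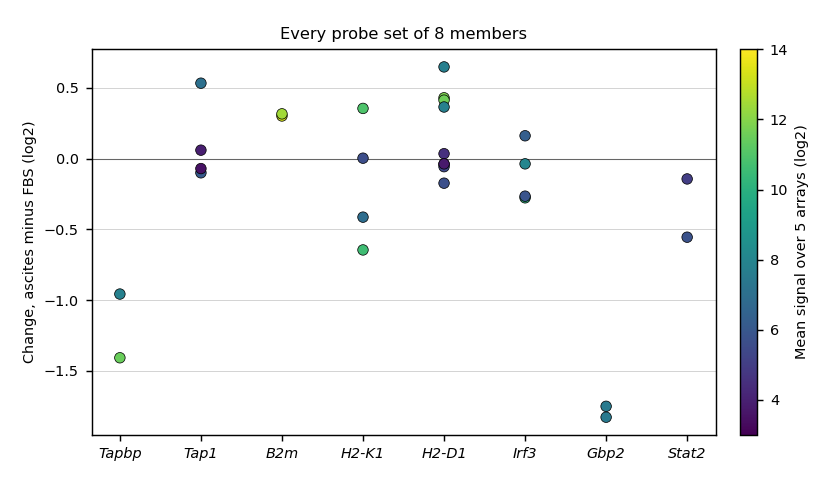
Change of every probe set of 8 members, ascites minus FBS (log2, vertical axis), coloured by mean signal over the 5 arrays. Both probe sets of Tapbp lie near or below -1 and both of B2m near 0.3, whereas those of H2-K1 run from -0.64 to 0.35 and those of H2-D1 from -0.17 to 0.65.

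The immunoproteasome subunits, which replace the constitutive catalytic subunits after interferon gamma, were 3 genes with no call. Psmb8 changed by 0.22 and Psmb9 by 0.05, and Psmb9 read 5.77 on 4 of the 5 arrays. Psmb10 read 9.14 and 9.15 in ascites, against 9.25, 9.30 and 9.77 in FBS, a change of -0.29 (adjusted p = 0.421), or -0.13 without FBS replicate 3. Tap1 and Psmb9 are divergent neighbours whose RefSeq starts lie 226 bases apart on chromosome 17, so 275 bases of their windows are shared (chr17:34187306-34187605 for Tap1). The change was 0.53 for Tap1 and 0.05 for Psmb9, and neither passed. Their constitutive counterparts Psmb5, Psmb6 and Psmb7 changed by 0.46, 0.25 and 0.16, and 0 of these 3 passed (lowest adjusted p = 0.111).

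None of the 4 class II genes passed the threshold in limma (0 at an unadjusted p below 0.05). Cd74, the invariant chain that guards the class II groove, read 6.98 and 7.61 in ascites, against 6.72, 6.95 and 6.86 in FBS. The ascites arrays were the highest, but replicate 2 exceeded FBS replicate 2 by only a small margin (change 0.45, SE 0.21, adjusted p = 0.303). The alpha chain gene H2-Aa read 5.14 and 4.97 in ascites, against 4.96, 4.96 and 4.92 in FBS (change 0.11, adjusted p = 0.439). A dimmer probe set of H2-Aa changed by -0.10. The beta chain gene H2-Ab1 averaged 5.60 ± 0.01 in ascites (SD, n = 2) and 5.57 ± 0.03 in FBS (SD, n = 3). Ciita, the master activator of class II genes, read 5.32 and 5.56 in ascites and 5.56 on every FBS array. Whether H2-Aa, H2-Ab1 or Ciita lay above background cannot be read from the deposited values. Of 12 other measured genes of the class II pathway, 0 passed, and 1 had an unadjusted p below 0.05, beside 24.2% of all genes. It was Rfxap, a subunit of the complex that opens class II promoters (change -0.94, SE 0.23, adjusted p = 0.102).

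Outside the members, 86 other genes of the interferon and antigen presentation pathways were measured, of which 1 rose and 2 fell (3.49%, against 5.28% of all genes), with a median change of -0.04. Called genes numbered 22 without FBS replicate 3 (25.6%, against 20.1% of all genes), of which 4 had risen and 18 had fallen (20.9%, against 10.9%). Both genes that fell are brakes on cytokine signalling, and they were 2 of 8 measured brakes, beside 2.59% of all genes fallen. The median change of the 8 was -0.04, with 1 higher and 7 lower in ascites, and Ptpn2 changed by 0.16. Socs3, a feedback inhibitor of JAK kinases, read 9.94 and 9.76 in ascites, against 11.08, 11.08 and 10.80 in FBS, and was 2.20-fold lower (change -1.14, SE 0.12, adjusted p = 0.0263). Pias1, a SUMO ligase that inhibits cytokine signalling, read 9.29 and 9.17 in ascites, against 9.84, 10.05 and 9.86 in FBS, and was 1.61-fold lower (adjusted p = 0.0382). The gene that rose was H2-M3, a non-classical class I molecule that presents formylated bacterial peptides. It read 9.18 and 9.20 in ascites, against 8.52, 8.58 and 8.27 in FBS, and was 1.66-fold higher (change 0.73, SE 0.11, adjusted p = 0.045). For each of these 3 genes the ascites arrays lay apart from all FBS arrays. With a trended prior, H2-M3 and Pias1 were no longer called (adjusted p = 0.0545 and 0.0508), and with the mean of its probe sets Pias1 changed by -0.33 (adjusted p = 0.105). All 3 calls were also lost in the fits that called 0 genes.

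With all 5 arrays the upstream steps gave no call. Of 5 interferon genes, 0 passed, and Ifna2, with the smallest p, changed by -0.24 (adjusted p = 0.192). Among 9 receptor, JAK and STAT genes 0 passed. Without FBS replicate 3, 1 of the 9 rose and 2 fell, beside 9.17% of all genes risen and 10.9% fallen. Stat3, which carries interleukin-6 type signals and also answers interferons, read 10.23 and 9.92 in ascites, against 11.69, 11.67 and 10.63 in FBS, and changed by -1.25 (SE 0.39, adjusted p = 0.152). The groups did not overlap, with FBS replicate 3 between the ascites arrays and the other FBS arrays. Irf5, which drives inflammatory cytokine genes in myeloid cells, read 6.46 and 6.71 in ascites, against 9.68, 9.85 and 7.35 in FBS. FBS replicate 3 was nearer to the ascites arrays, as for Ifi27l2a, and the change was -2.38 (SE 0.87, adjusted p = 0.203), or -3.18 without it (adjusted p = 0.00737).

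Among 10 genes of nucleic acid sensing, 0 passed. Without FBS replicate 3, 2 of the 10 fell and 0 rose, beside 10.9% of all genes fallen and 9.17% risen. Mavs, the mitochondrial adaptor downstream of MDA5, changed by -0.36 (SE 0.07, adjusted p = 0.0637). Of 26 further interferon-stimulated genes, 0 passed in limma and 7 had an unadjusted p below 0.05, beside 24.2% of all genes. Without FBS replicate 3, 6 of the 26 fell and 0 rose, beside 10.9% of all genes fallen and 9.17% risen. Samhd1, which depletes deoxynucleotides, had the smallest p among them, at 9.0 on both ascites arrays, against 9.34, 9.46 and 9.53 in FBS (change -0.44, adjusted p = 0.054). Chosen after their values were seen, the endosomal RNA receptor Tlr7 changed by -1.54 (adjusted p = 0.0807) and the exonuclease Isg20 by -1.17 (adjusted p = 0.0601).

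**Figure D5:**
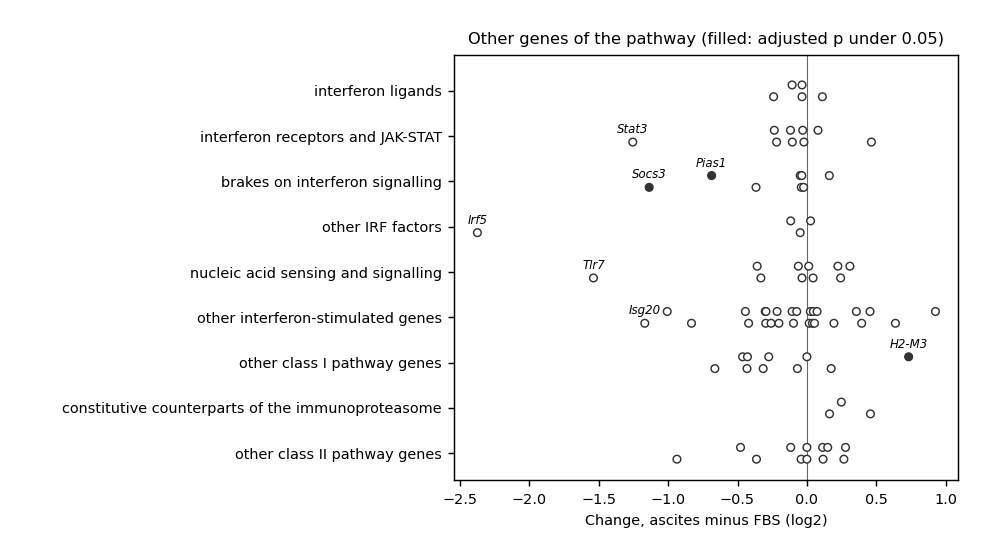
Change of each measured gene in 9 further lists of the pathway, ascites minus FBS (log2, horizontal axis), with filled points for an adjusted p under 0.05. Only Socs3, Pias1 and H2-M3 are filled, and Irf5 lies farthest from 0 at -2.38.

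The 8 ovarian surface and mesothelial markers read 5.12 to 14.63 over the arrays. Of these, 2 fell, Krt18 (12.16 and 11.76 in ascites, against 13.50, 13.53 and 13.15 in FBS, adjusted p = 0.0361) and Krt19 (adjusted p = 0.0428), and 0 rose, with a median change of -1.43. Leukocytes, which are common in ascites, express class II and many interferon-stimulated genes. Of 16 leukocyte markers 0 passed, their mean signal was 5.09 to 5.17 on the ascites arrays and 5.08 to 5.13 on the FBS arrays, and the pan-leukocyte gene Ptprc (CD45) read 3.43 and 3.37 in ascites, against 3.51, 3.34 and 3.43 in FBS. The leukocyte marker with the smallest p, Cd79b, changed by -0.25 (adjusted p = 0.181), and Ptprc is given outside the rule for named genes. Of the 16 markers, 9 had a higher mean in ascites and 7 a lower one. The highest change was that of Cd68, at 0.52 (adjusted p = 0.573), or 0.085 without FBS replicate 3. Cd14 changed by 0.38 (adjusted p = 0.642), or by 0.74 without FBS replicate 3 (adjusted p = 0.101). Of 5 endothelial markers 0 passed, and Tie1 changed by 0.19 (adjusted p = 0.194).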

How the data were processed

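The deposited values are log2 array signals, 1 per probe set and array, as judged from their range. They were made with Affymetrix Expression Console, per the submitters' processing notes. The sources used here give neither its version nor its summarisation method. Array medians were 7.4 to 7.47, and no further normalization was applied. Of 22690 probe sets, 64 array controls were left out, 20380 named 1 gene in the platform annotation, and 20351 of these matched RefSeq by Entrez identifier. Probe sets with 1 gene covered 12393 genes, with the probe set of highest mean for each. The comparison used limma 3.58.1 (R 4.3.3), with 3 residual and 1.33 prior degrees of freedom, and the calculation was tested on simulated data. Members and gene lists were chosen with earlier results of these data known. Named members passed the threshold, changed by at least 1, or had one of the 2 smallest p values in their role group. From other lists, up to 4 called genes or the one with the smallest p were named. Promoter sequences are from RefSeq, GRCm38.p6.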

Additional observations from a re-analysis of the deposited data

How the results depend on the processing

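Over 13 alternatives, the 3 called members kept their direction, with changes of -1.24 to -0.81 for Irf1, -1.53 to -1.18 for Tapbp and 0.51 to 0.63 for Oas1a. Leaving out, averaging or weighting arrays could not turn these directions, because the groups did not overlap. Called members numbered 3 with the mean of all probe sets, without the dimmest 25% of genes and with quantile normalization. They also numbered 3 with median centring and with a trended prior. Genes called over the whole array were 703, 884 (of 9296, with 31 members left), 892, 916 and 478 in that order, against 654 in the reported fit. The share over all genes thus moved while the count of members did not. With array weights called members numbered 9 (antiviral genes 2, GTPases 2, IRF and STAT factors 2, class I 3), with 2612 genes of the whole array and 20 of the related lists. They numbered 0 with FBS replicates 1 and 2 averaged, as did every other count (2128 genes at an unadjusted p below 0.05). The labels share replicate numbers 2 and 3 between groups without saying that they mark a pair, and differences between those replicates correlated at 0.0392 across genes. With the replicate number as a block, called members, genes, related genes and every role group numbered 0 (1891 genes at an unadjusted p below 0.05). Leaving out 1 array gave 0 to 2494 genes, 0 to 8 members and 0 to 22 related genes, and by role 0 to 2 antiviral genes, 0 to 2 GTPases, 0 to 2 IRF and STAT factors and 0 to 2 class I genes. Related genes called, 3 in the reported fit, numbered 2 with the mean of all probe sets, 5 without dim genes, 5 with quantile normalization, 6 with median centring and 1 with a trended prior. H2-K1 reversed to -0.17 with the mean of its probe sets, since these disagree. With that mean the median change of the members was -0.007, below 0, against 0.06 in the reported fit. The cause of the other differences was not tested.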
